A study of Homo sapiens with 2 samples.

Results

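Replication-independent histone variant genes were studied by cap analysis of gene expression (CAGE) in PLC/PRF/5, an established human hepatoma line. The members were 9 genes chosen by name, among them H2AFX, H2AFZ, H2AFV, H2AFY, H2AFJ, H3F3A, H3F3B and H1FX, of 16424 genes listed in the deposited values. All 9 were among the 13724 genes tested, that is, with a mean of at least 1 CPM (tags scaled to the size of the library, the deposited unit) over the libraries. Cells treated for 6 h with M2BPGi, a glycosylation isomer of Mac-2-binding protein, at 3 µg/ml gave 1 library, and non-treated cells (0 µg/ml) gave the other. As inferred from the rounded CPM values, the non-treated library held 24040209 tags and the treated one 24862941. With 1 cell line and 1 library per condition, no difference has a replicate check and no test of the treatment was possible. A lower share of cells with a transcript and less RNA per cell cannot be told apart in such bulk samples.

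Most histone proteins are made from clustered genes that are transcribed in S phase and whose mRNAs end in a stem-loop instead of a poly(A) tail. Variant histones replace these proteins in chromatin at any time of the cell cycle. Their genes in general lie outside the clusters and give polyadenylated mRNAs, several of them spliced. A CAGE tag marks the start of a capped transcript, so the number of tags does not grow with transcript length and levels can be set side by side between genes.

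The label of a hepatoma line was first checked against markers. Without and with M2BPGi, the liver secretory genes had 950.03 and 623 CPM (FGB, log2 ratio -0.61), 695 and 566 CPM (AFP, -0.30) and 671 and 455 CPM (SERPINA1, -0.56). The epithelial keratins had 1250 and 1592 CPM (KRT18, 0.35) and 835 and 811 CPM (KRT8, -0.04). Other liver genes were low, with 8.82 and 7.04 CPM for ALB, 4.37 and 4.63 CPM for APOA1 and 3.62 and 2.49 CPM for TTR. Of 11 hepatoma markers, 3 were higher and 8 lower (57.0% of all genes), 4 of them by at least 1.3-fold (13.6% of all genes). Of markers of other cells, PTPRC was at 0 in both libraries, where 0 tags allow up to 0.125 and 0.121 CPM. COL1A1 had 0.67 and 0.76 CPM and CD68 had 21.2 and 20.5 CPM. The part of the lower secretory genes in the values below was not tested.

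To show what sets the members apart from clustered genes, the stem-loop of histone mRNAs was searched by its sequence pattern in the first 200 bases after the stop codon, on the transcript strand, in coding transcripts of GENCODE v29 (GRCh38) with at least 40 such bases. It was found in H2AFX and in none of the other 8 members. Of 29 cluster histone genes that could be searched, 26 (89.7%) held it, against 34 of 18895 coding genes (0.18%). Among the tested genes, BTBD10 was the single gene with a match outside the cluster histones and H2AFX. The H2AFX match lies 50 bases after the stop codon in the 3′ untranslated region. It is shown beside those of the cluster genes named below that had one, with the stem in capitals and the loop in lower case. A match is a description of the sequence.
H2AFX (chr11:119094898-119094913, minus strand): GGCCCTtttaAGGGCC
HIST1H3G (chr6:26270923-26270938, minus strand): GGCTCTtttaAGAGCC
HIST2H2BF (chr1:149811885-149811900, minus strand): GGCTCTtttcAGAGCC
HIST1H3E (chr6:26225596-26225611, plus strand): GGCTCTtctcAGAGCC

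The bases before the transcript start were taken from RefSeq (GRCh38.p14), in which 8 of the 9 members were matched, with 12 starts. Members with a single start are printed with the last 100 bases before it, because they show the elements found near these starts, with CCAAT (either strand, so also as ATTGG) and TATAAA in capitals.
H2AFX (chr11:119095466-119095565, minus strand): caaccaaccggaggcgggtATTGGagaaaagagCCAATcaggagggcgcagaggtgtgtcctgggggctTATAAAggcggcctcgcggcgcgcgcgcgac
H2AFZ (chr4:99950276-99950375, minus strand): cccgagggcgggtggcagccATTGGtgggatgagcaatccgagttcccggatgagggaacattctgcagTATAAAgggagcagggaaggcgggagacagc
H2AFV (chr7:44848088-44848187, minus strand): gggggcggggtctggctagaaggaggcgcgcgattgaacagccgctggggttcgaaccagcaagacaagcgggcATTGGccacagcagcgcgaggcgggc
H2AFJ (chr12:14774305-14774404, plus strand): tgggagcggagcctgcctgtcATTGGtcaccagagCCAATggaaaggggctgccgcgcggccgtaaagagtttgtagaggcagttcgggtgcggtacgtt
H3F3B (chr17:75779780-75779879, minus strand): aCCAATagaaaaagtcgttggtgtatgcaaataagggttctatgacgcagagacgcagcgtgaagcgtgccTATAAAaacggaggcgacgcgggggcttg
H1FX (chr3:129316287-129316386, minus strand): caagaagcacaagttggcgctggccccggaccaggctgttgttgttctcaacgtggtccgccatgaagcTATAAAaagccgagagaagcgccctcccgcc

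Within 250 bases before the start, CCAAT on either strand was found at 9 of the 12 member starts (75.0%), at 87.3% of 55 starts of cluster histone genes and at 32.0% of all 35116 promoters. TATAAA on the given strand was found at 4 member starts (33.3%), those of H2AFX, H2AFZ, H3F3B and H1FX, at 58.2% of the cluster starts and at 6.80% of all promoters. GGGCGG on either strand was found at 58.3% of the member starts, 21.8% of the cluster starts and 42.6% of all promoters. All 4 starts of H3F3A held GGGCGG, as did those of H2AFV and H2AFZ and 1 of H2AFY. Thus 1 gene gave most of the member starts with it. TTTGAA on either strand was found at 8.33%, 38.2% and 13.3%, respectively. TTCGCGC on either strand was found at 0 member starts, 21.8% of the cluster starts and 1.85% of all promoters. The values of the genes with TATAAA ran from a log2 ratio of 0.02 for H3F3B to 0.35 for H2AFX, so that they covered most of the range of the members.

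All 9 members had more CPM in M2BPGi-treated than in non-treated cells, against 42.9% of all genes tested, and 0 had less, against 57.0%. Their summed level was 2271 CPM without and 2663 CPM with M2BPGi, a ratio of 1.17. H2AFZ and H3F3A together made up 59.9% of this difference. The log2 ratio (treated over non-treated), computed after adding 1 CPM to both values, had a median of 0.18 over the members (quartiles 0.11 and 0.35) and of -0.05 over all genes (quartiles -0.26 and 0.14). The differences were small. In the higher direction 1 member passed 1.3-fold, against 6.32% of all genes. In the lower direction 0 members passed it, against 13.6% of all genes. When the treated library was rescaled so that all genes had a median of 0, 3 members were at least 1.3-fold higher (H2AFX and H3F3A among them), against 8.69% of all genes. These were also the 3 members at least 1.2-fold higher without rescaling, against 13.0%, a threshold chosen after the data were seen. At 1.5-fold and at 2-fold, 0 members were higher, against 1.60% and 0.240% of all genes. The interval beside each ratio is the 95% Clopper-Pearson interval of the tag numbers, without the added CPM, and covers counting error only. It lay above 0 for 8 members, against 22.8% of all genes, and below 0 for 0, against 31.5%, counts also chosen after the data were seen.

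**Figure D1:**
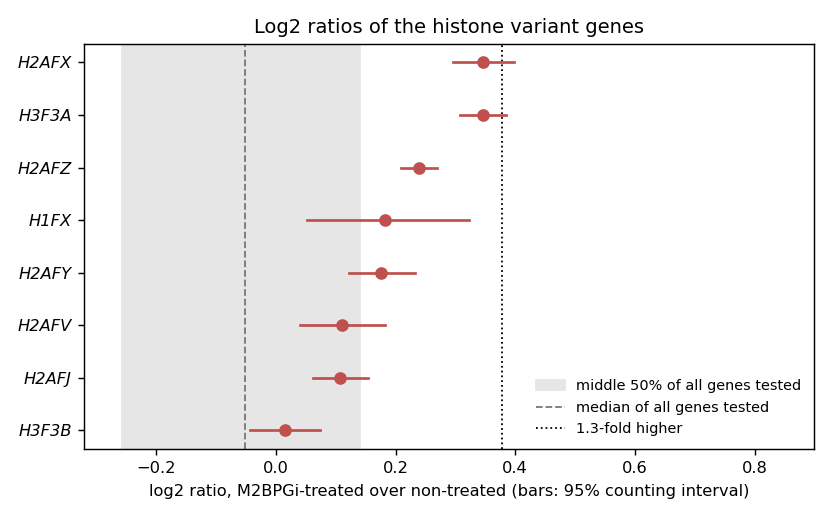
Log2 ratio of treated over non-treated cells (x axis) for 8 of the 9 members (points), with the 95% counting interval of the tag ratio (lines), 1 library per condition. The grey band is the middle 50% of all 13724 genes tested, the dashed line their median of -0.05, and the dotted line the 1.3-fold threshold, which none of the members shown passes.

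The level of a gene moved with these ratios across all genes. The median log2 ratio was -0.11 for genes with a mean of 1 to 10 CPM, -0.05 for 10 to 100 CPM and 0.10 for 1924 genes with at least 100 CPM, the class that holds 8 of the members. In that class, 62.6% of genes were higher, 9.98% passed 1.3-fold in this direction and 23.3% passed 1.2-fold. The length of the longest coding transcript moved with the ratio as well, over genes with at least 10 CPM. The median was 0.10 in the shortest of 4 equal length classes (222 to 2073 nt), which holds 5 members, and -0.12 in the longest (5082 to 34526 nt), which holds 0. The part of level and length in the members' values was not tested.

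Of the H2A variants, H2AFZ (ENSG00000164032, chr4:99948086-99950388, minus strand in GRCh38) had the highest level of all members. It encodes H2A.Z.1, a variant placed at promoters by dedicated remodelling complexes. It had 679 CPM without and 802 CPM with M2BPGi, at rank 170 of the tested genes by mean level. Its log2 ratio was 0.24 (interval 0.21 to 0.27). Its paralog H2AFV (ENSG00000105968, chr7:44826791-44848083, minus strand), which encodes H2A.Z.2, had 124 and 134 CPM, a log2 ratio of 0.11 (interval 0.04 to 0.18). H2AFV thus made up 15.4% of H2A.Z tags (interval 14.9% to 15.9%) in non-treated and 14.3% (13.9% to 14.8%) in M2BPGi-treated cells. Each paralog has a near-identical pseudogene, that is, a match of at least 95% identity over at least 100 nt of the first 500 nt of a transcript, and tags may have been assigned to either copy. The copy of H2AFV was listed at 23.8 and 26.0 CPM and that of H2AFZ at 1.33 and 0.60 CPM. With these rows counted with their parents, the share of H2AFV was 17.8% and 16.6%, lower in treated cells as before.

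H2AFX (ENSG00000188486, chr11:119093854-119095467, minus strand) encodes H2AX, which is phosphorylated around DNA double-strand breaks. This gene has 1 exon and holds the stem-loop shown above, and its mRNA is known in both a stem-loop and a polyadenylated form. Its level was 228 CPM in the non-treated and 290.2 CPM in the treated library. The log2 ratio was 0.35 (interval 0.30 to 0.40), the highest among the H2A variants, and it was below the cluster H2A median of 0.57. Its share of the tags of the 5 H2A variants was 14.8% (14.4% to 15.1%) and 16.2% (15.9% to 16.6%), respectively. CAGE tags lie at the start of a transcript and do not tell which 3′ end it has.

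H2AFY (ENSG00000113648, chr5:135333900-135399914, minus strand) encodes macroH2A1, a variant with a large non-histone domain that is linked to silent chromatin. It had 203 and 229 CPM, a log2 ratio of 0.18 (interval 0.12 to 0.23). H2AFJ (ENSG00000246705, chr12:14774383-14778002, plus strand) encodes H2A.J, a protein close to canonical H2A, from a gene with 1 exon. It had 308 and 332 CPM, a log2 ratio of 0.11 (interval 0.06 to 0.15). The intervals of H2AFY, H2AFV and H2AFJ overlap, so that their order by ratio is not fixed by the tag counts.

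H3F3A (ENSG00000163041, chr1:226061851-226072001, plus strand) and H3F3B (ENSG00000132475, chr17:75776434-75785893, minus strand) encode the same protein, H3.3, which is laid down in active genes and at some silent repeats. H3F3A had 414 CPM without M2BPGi and 526 CPM with it, a log2 ratio of 0.35 (interval 0.31 to 0.38). H3F3B had 192 and 194 CPM, a log2 ratio of 0.02 (interval -0.04 to 0.07), so that a difference was not detectable at this depth. The ratios of this pair lay further apart than those of H2AFZ and H2AFV. The share of H3F3B among H3.3 tags was 31.7% (30.9% to 32.4%) in non-treated and 26.9% (26.3% to 27.6%) in M2BPGi-treated cells, intervals that do not overlap. H3F3A has 7 near-identical copies in the annotation, of which H3F3AP4 matched at 100% over 343 nt, was listed at 9.11 and 13.8 CPM and had a log2 ratio of 0.55 (interval 0.35 to 0.85). H3F3AP6 was listed at 2.12 and 2.05 CPM and H3F3BP1 at 0 in both libraries. With these rows counted with their parents, the share of H3F3B was 31.1% and 26.3%, each inside the interval given above. H3F3C, an H3.3-like gene with 96.4% identity to H3F3B over 442 nt, had 6.95 and 3.86 CPM.

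The linker histone variants bind DNA between nucleosomes. H1FX (ENSG00000184897, chr3:129314771-129316277, minus strand), which encodes H1.10, had 34.5 CPM without M2BPGi and 39.3 CPM with it, the lowest level among the members described. Its log2 ratio was 0.18 with the widest interval among them (0.05 to 0.32).

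**Figure D2:**
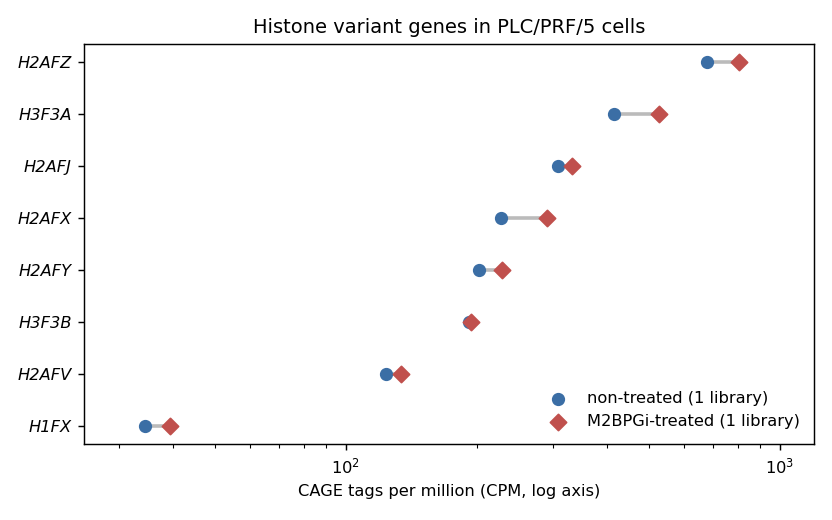
CAGE level of 8 of the 9 members in CPM (x axis, log scale) in the non-treated library (circles) and the M2BPGi-treated library (diamonds), 1 library each. The levels run from 34.5 CPM for H1FX to 802 CPM for H2AFZ, and the order of these members by level is the same in both libraries.

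The members also differ in gene structure. H2AFX, H2AFJ and H1FX have 1 exon in each coding transcript, while 5 members have 3 to 9. By Euclidean distance of log2(CPM + 1) over the 2 libraries, the genes nearest to H2AFZ were TPT1 (692 and 826 CPM) and UQCRH (654 and 801 CPM). Those nearest to H3F3A were NNMT (415 and 529.9 CPM, at a distance of 0.01) and the cluster gene HIST1H2AB (425 and 517 CPM). Those nearest to H2AFJ were TPM2 (311 and 333 CPM) and SLC9A3R1 (312 and 326 CPM).

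Set against the replication-dependent cluster histones, the variants showed the smaller differences. Of 61 cluster genes listed, 53 were tested, and 52 of these were higher in M2BPGi-treated cells, against 42.9% of all genes, and 42 by at least 1.3-fold, against 6.32%. Among all genes with at least 100 CPM these shares were 62.6% and 9.98%. Their median log2 ratio was 0.52 and their summed level 15372 and 22808 CPM, a ratio of 1.48. By family, the ratio for the cluster genes was 1.37 for H1, 1.47 for H2A, 1.47 for H2B, 1.41 for H3 and 1.82 for H4, against 1.17 for the summed level of all members. Within families, the ratio for the variants was 1.16 for H2A and 1.19 for H3. For H1 it was also below that of the cluster genes, by the smallest gap of these families. The 3 highest cluster genes with a mean of at least 10 CPM were HIST1H4C (311 and 720 CPM, log2 ratio 1.21), HIST1H4D (1.11) and HIST1H3G (0.97). The 3 lowest were HIST2H2BF (0.24), HIST1H4A (0.20) and HIST1H3E (-0.32), all below the ratios of H2AFX and H3F3A. In the shares, the variant genes made up 24.2% of H2A tags (24.0% to 24.4%) in non-treated and 20.1% (20.0% to 20.3%) in M2BPGi-treated cells. They made up 12.9% (12.7% to 13.1%) and 11.1% (10.9% to 11.2%) of H3 tags. Each total held only the members and the cluster genes of the family. It left out H3F3C, H2AFY2 and the H3 variant gene CENPA (142 and 111 CPM), and shares with these genes were not computed. The interval of each treated share lies below that of the non-treated share. Cluster genes resemble each other, and 14 of the 61 had a match in the search for near-identical copies.

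**Figure D3:**
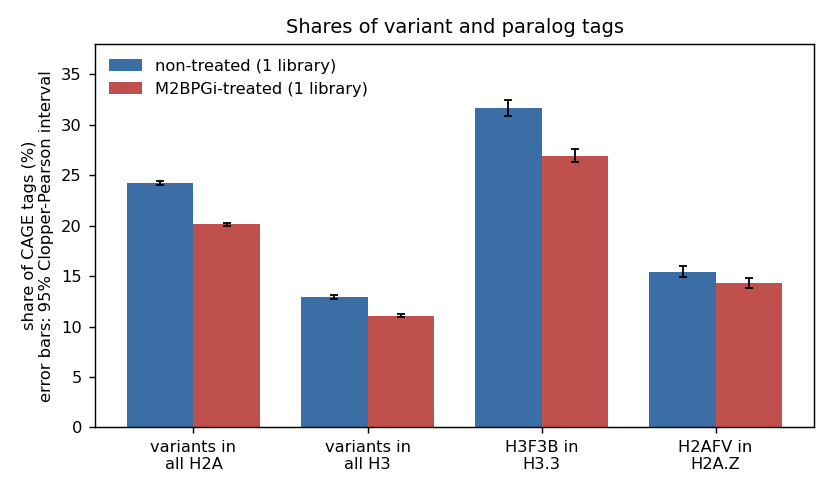
Share of CAGE tags in percent (y axis) in the non-treated and the M2BPGi-treated library, 1 library each. The shares in H2A and in H3 are those of the members among the members and cluster genes of the family. Other variants, such as CENPA, are left out. The shares of paralogs are those of H3F3B among H3F3A and H3F3B, and of H2AFV among H2AFZ and H2AFV. Error bars are 95% Clopper-Pearson intervals, and all 4 shares are lower in the treated library, from 31.7% to 26.9% for H3F3B.

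Other variant genes were not higher in treated cells. CENPA, which encodes the H3 variant of centromeres and is transcribed late in the cell cycle, had 142 and 111 CPM, a log2 ratio of -0.35 (interval -0.42 to -0.28). Of 13 further variants looked up, 3 were listed, CENPA, H3F3C and H2AFY2, all with less CPM in treated cells, as 57.0% of all genes had. For H2AFY2 the values were 3.58 and 3.50 CPM, a log2 ratio of -0.03 (interval -0.48 to 0.42) that was 0.03 after rescaling.

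Genes that place the variants in chromatin were read next. Of 7 genes for H3.3 deposition, 2 were higher and 5 lower, against 42.9% and 57.0% of all genes, with a median log2 ratio of -0.13. ASF1A, a chaperone that hands H3 and H4 to other factors, had 16.7 and 23.1 CPM, a log2 ratio of 0.45 (interval 0.28 to 0.66). UBN1, a subunit of the HIRA complex, had 15.2 and 11.1 CPM (-0.42, interval -0.69 to -0.23). UBN1 did not pass 1.3-fold after rescaling (-0.37) or with a pseudocount of 5 CPM (-0.33), nor did ASF1A with 5 CPM (0.37). HIRA itself had the highest level of the list with 96.2 and 102 CPM, a log2 ratio of 0.08 with an interval that includes 0 and reaches 0.16. The 8 replication-coupled H3-H4 chaperones had a median of -0.03, which was 0.02 after rescaling, and 0 passed 1.3-fold in either direction, against 6.32% and 13.6% of all genes. Their most abundant gene, MCM2, had 86.3 and 77.8 CPM.

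The 13 genes for H2A.Z deposition and removal had a median log2 ratio of 0.06, with 9 higher and 4 lower, against 42.9% and 57.0% of all genes. VPS72, which encodes the subunit that binds H2A.Z in both remodelling complexes, had 20.8 and 33.3 CPM, a log2 ratio of 0.66 (interval 0.52 to 0.85). RUVBL2, an ATPase of these complexes and of others, had the highest level with 96.0 and 122 CPM (0.35, interval 0.27 to 0.43). The 7 H2A-H2B chaperones had a median of 0.09, with 6 higher, against the same 42.9%. SSRP1, a subunit of the FACT complex, had 18.3 and 27.5 CPM (0.56, interval 0.41 to 0.76), and NPM1, the most abundant, had 1464 and 1571 CPM (0.10, interval 0.08 to 0.12).

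Of 12 listed genes for H2AX phosphorylation and the response to it, 10 were lower, against 57.0% of all genes, and 2 higher. Their median log2 ratio was -0.16. The interval lay below 0 for 6 of them, against 31.5% of all genes. By at least 1.3-fold, 3 were lower, against 13.6% of all genes. This count was 2 after rescaling, against 10.2%, and 1 with a pseudocount of 5 CPM, against 6.73%. ATM, one of the kinases in the list, had 19.7 and 13.0 CPM, a log2 ratio of -0.57 (interval -0.82 to -0.40). PRKDC, another kinase in it, had 98.5 and 94.1 CPM (-0.07, interval -0.15 to 0.02). EYA3, a phosphatase of H2AX, had 14.6 and 10.1 CPM (-0.49, interval -0.77 to -0.29). The third was EYA4, with 3.04 and 2.01 CPM, named after its value was seen. PPP4C, a phosphatase subunit and the most abundant gene of the list, had 113 and 118 CPM (0.06, interval -0.02 to 0.13).

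The 17 genes for the production of cluster histone mRNAs had a median log2 ratio of -0.03, which was 0.02 after rescaling. Of them, 7 were higher and 10 lower, against 42.9% and 57.0% of all genes. The interval lay above 0 for 5 and below 0 for 3, against 22.8% and 31.5% of all genes. LSM10, a protein of the U7 particle that cuts these mRNAs, had 32.2 and 49.7 CPM, a log2 ratio of 0.61 (interval 0.49 to 0.76). SLBP, which binds the stem-loop, was the most abundant with 96.1 and 104 CPM (0.12, interval 0.04 to 0.20). The 17 S phase genes had a median of -0.13, with 6 higher and 11 lower, against 42.9% and 57.0% of all genes. GINS1, a helicase subunit, had 12.5 and 17.7 CPM (0.47, interval 0.28 to 0.72) and POLA1, the catalytic subunit of DNA polymerase alpha, 32.1 and 23.2 CPM (-0.45, interval -0.63 to -0.31). With a pseudocount of 5 CPM, GINS1 did not pass 1.3-fold (0.37). RRM2, the most abundant, had 105 and 102 CPM, a log2 ratio of -0.04 that was 0.01 after rescaling. Among the genes named from these lists, CENPA, HIRA, RUVBL2, NPM1, ATM, RRM2 and HIST2H2BF had at least 1 match in the search for near-identical copies. The search did not leave out genes that overlap in the genome, so a match need not be a separate copy. The assignment of the tags of these genes is thus uncertain.

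**Figure D4:**
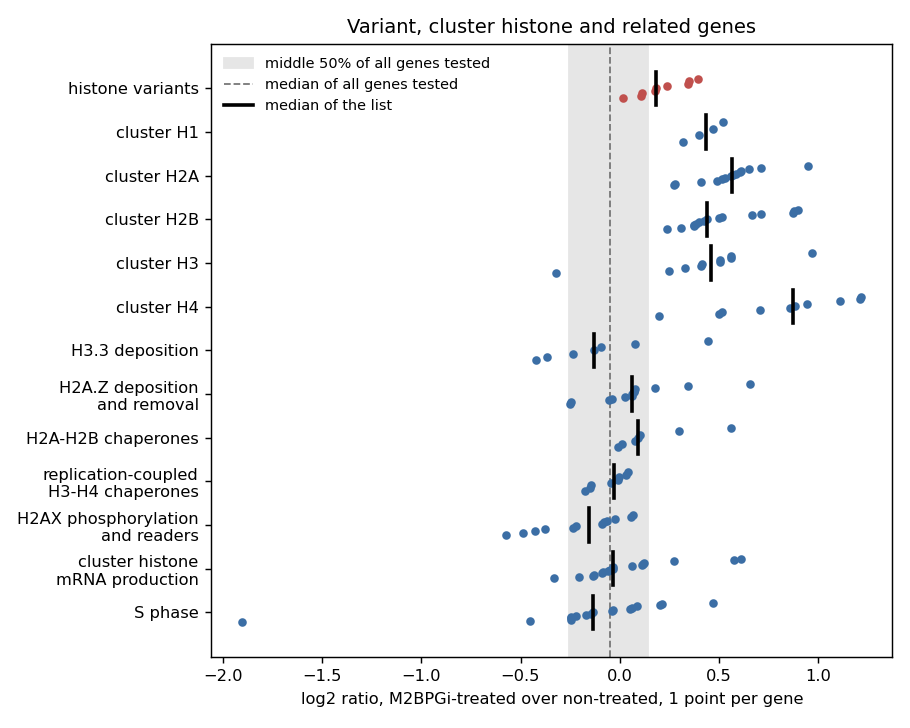
Log2 ratio of treated over non-treated cells (x axis), 1 point per tested gene, for the 9 histone variants (red), the cluster histones by family and the lists of related genes (blue), with the median of each list as a black line. The grey band is the middle 50% of all genes tested and the dashed line their median of -0.05. The variants have a median of 0.18, between the medians of the cluster families and those of the other 7 lists shown.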

How the data were processed

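CAGE libraries were made from RNA of PLC/PRF/5 cells, 1 from non-treated and 1 from M2BPGi-treated cells. The authors deposited tags per gene as CPM, rounded to 2 decimals. Before that, per the study's methods, ribosomal tags and tags with undetermined bases were discarded, BWA was used for mapping and CAGEr for clustering of 5′ ends. The genome named there is that of the mouse, whereas hg19, BWA and HISAT2 stand in the submitters' processing notes and human identifiers in the values. The rule that gave a tag to a gene, also where it matched several places, is not given in the sources used here.

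Log2 ratios were computed from the CPM over genes with a mean of at least 1 CPM, on the log2(CPM + pseudocount) scale with a pseudocount of 1 CPM, on which folds of low genes come out too small. The total of tags in each library was inferred from the CPM, as the total at which the most values were whole tags within the rounding. With it, each value above 0 (100%) lay within 0.005 CPM, the rounding, of a whole number of tags. Tag numbers read back in this way were used for intervals (95% Clopper-Pearson) and shares only, after the step had been tested on simulated data. The outcome on simulated data is not reported here. A count of 0 tags was given an upper limit of 3 tags. The planned tests on tags were not run, because the steps did not meet the criterion set for whole tags. That criterion was stricter than agreement within the rounding, and the rounding to 2 decimals kept it from being met.

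The members and gene lists were chosen with earlier results of these data known. The named genes were all members, the list genes with a mean of at least 10 CPM that were at least 1.3-fold higher or lower (up to 3 each way), the most abundant gene of each list, the 3 highest and 3 lowest cluster histones with a mean of at least 10 CPM, the 2 genes nearest to each of the 3 most abundant members, and cell type markers. Values of some genes that this rule selects are not reported here. Cluster histones were taken by symbol (66 names), and 5 pseudogene names were left out. Near-identical copies are genes of GENCODE v29 (GRCh38, not the build of the mapping) that match the first 500 nt of a transcript with at least 95% identity over at least 100 nt on the same strand, found with BLAST+ 2.17.0. Genes that overlap each other in the genome were not left out of this search. Coordinates are from GENCODE v29 and from RefSeq. Python 3.11.15 with scipy 1.17.1, pandas 2.3.3 and matplotlib 3.10.9 was used. Alternatives were other pseudocounts, filters, scaling and fold thresholds, members without copies, and pseudogenes counted with their parents.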

Additional observations from a re-analysis of the deposited data

How the results depend on the processing

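No paired analysis was possible because the conditions have a single library each. The median log2 ratio of the histone variant genes (0.18) ran from 0.17 with a pseudocount of 5 CPM to 0.23 after rescaling of the libraries to a median of 0. It was 0.18 over the 5 members with no near-identical transcript elsewhere. All 9 members stayed above 0 and 0 were at least 1.3-fold lower under each pseudocount, filter and scaling tried. For the count above 0, these settings were added after the data were seen. The count of 1 member past 1.3-fold in the higher direction was unchanged by the pseudocounts and filters but was 3 after rescaling, 0 with a threshold of 1.5-fold and 0 with 2-fold. With a threshold of 1.2-fold it was 3, and 8 members had a counting interval above 0, both alternatives added after the data were seen. With pseudogenes counted with their parents, the share of H2AFV among H2A.Z tags was 17.8% in non-treated and 16.6% in M2BPGi-treated cells, because the pseudogene of H2AFV had more tags than that of H2AFZ. The median of the cluster histones stayed between 0.50 and 0.57. Of 35 named genes, 6 moved out of their counting interval on rescaling, and 1, H3F3C, did so with a pseudocount of 5 CPM (-0.43). Of the 35, 2 changed sign on rescaling, H2AFY2 from -0.03 to 0.03, and RRM2 from -0.04 to 0.01, each inside its interval. The list medians of the replication-coupled chaperones and of the genes for cluster histone mRNA production did so too, from -0.03 to 0.02 each. Rescaling moved the medians for H3.3 deposition and for the S phase genes from -0.13 to -0.08 each. It moved that for H2A.Z deposition and removal from 0.06 to 0.12 and that of the H2A-H2B chaperones from 0.09 to 0.14. The median of the H2AX list, -0.16, was -0.105 after rescaling and -0.09 at a mean of at least 10 CPM. Of the list for H2AX, 3 genes were at least 1.3-fold lower, 4 with a pseudocount of 0.1 CPM, 1 with 5 CPM, 2 at a mean of at least 10 CPM and 2 after rescaling, while the 42 cluster histones past 1.3-fold in the higher direction ran from 39 to 44. For counts and medians of lists other than the members, settings other than the main one were added after the data were seen. Scaling by TMM, the binomial test and the exact test of edgeR were not run, since the steps of the low values did not meet the criterion for whole tags. With 1 library per condition, the counting intervals are a lower limit of the error, and the spread between cultures was not measured.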
